A study of Caenorhabditis elegans with 2 samples.

Results

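The 8 genes that encode the DREAM complex of Caenorhabditis elegans are described here by the regions that ChIP-seq (sequencing of DNA recovered with a protein from chromatin) placed near them for the nuclear hormone receptor NHR-12 in first-stage (L1) larvae. The animals were whole larvae of strain OP318, with the sex given as males and females pooled, and with the genotype unc-119(ed3) III; wgIs318. They stably express NHR-12 fused at its C-terminus to GFP and FLAG. There was 1 group of 2 biological replicates, no age beyond the L1 stage was given, and a strain without the transgene was not analysed here. The signal therefore comes from a tagged transgene product in a mixture of all larval tissues, and cells that differ in binding cannot be told apart.

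The members were chosen by measured values in the same data: lin-9, lin-53 and lin-54 were picked because a peak of the authors' final set lay at their promoters. The remaining 5, lin-35, lin-37, lin-52, efl-1 and dpl-1, were added as the other subunits of the same complex. The 8 genes are 8 of 19973 protein-coding genes on the nuclear chromosomes. Their values are given as a description, with no test.

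DREAM takes its name from its DP, Rb-like, E2F and MuvB parts and is conserved from nematodes to mammals. The E2F-like protein EFL-1 and its dimerisation partner DPL-1 contact DNA, the pocket protein LIN-35, the only Rb family member of the worm, bridges them to the MuvB core, and within that core LIN-54 also contacts DNA. In worms the complex is best known as a transcriptional repressor of cell cycle genes and, in somatic cells, of germline genes, and several of its genes were found in screens for vulval cell fate defects (the synthetic multivulva class B genes).

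The authors deposited 4 lists of regions in ce11 coordinates. Replicate 1 had 26878 regions and replicate 2 had 30000, both with peaks and background together. A joint list of 3817 regions came from the alignments of both replicates. The 164 joint regions of highest signal made up the set from the irreproducible discovery rate (IDR) step, which rests on rank agreement between replicates. Membership of that set follows joint signal, so it does not show that the replicates agreed on a given region. Each region carries a signal value, the authors' own score for that region with no stated scale, so values are compared within a list only. A gene was counted when the midpoint of a region lay from 500 bp upstream to 200 bp downstream of its annotated 5′ end, called the promoter window. Read depth is unknown, and the absence of a region means that none was listed, not that none was bound. Mitochondrial regions stood apart between the replicates, with 21 listed in replicate 1 and 0 in replicate 2, yet the IDR set held 18. No member lies on that genome.

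The sequence under the joint midpoints of lin-9, lin-54 and efl-1 is shown for 3 of the 4 members with a joint region in the promoter window, so that the matches described next can be seen in place. Each run is the window from 100 bp before to 100 bp after the midpoint in ce11, without bases of annotated exons, read 5′ to 3′ on the strand of the member from the RefSeq WBcel235 assembly. Capitals mark matches, on either strand, to the E2F-type patterns TTTCCCGC, TTTGGCGC, TTTCGCGC and TTTGCCGC and to the CHR-type patterns TTTGAA and TTCGAA. E2F factors are known to bind the former kind, and LIN-54 and its homologues the latter. The lin-9 run is chrIII:8904187-8904387 on the minus strand, the lin-54 run chrIV:13240652-13240790 on the plus strand, and the efl-1 run chrV:16965676-16965870 on the minus strand.
lin-9: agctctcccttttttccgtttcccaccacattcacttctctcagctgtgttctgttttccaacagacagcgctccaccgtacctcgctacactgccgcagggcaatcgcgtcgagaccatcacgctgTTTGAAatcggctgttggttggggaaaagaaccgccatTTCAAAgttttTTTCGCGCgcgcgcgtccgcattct
lin-54: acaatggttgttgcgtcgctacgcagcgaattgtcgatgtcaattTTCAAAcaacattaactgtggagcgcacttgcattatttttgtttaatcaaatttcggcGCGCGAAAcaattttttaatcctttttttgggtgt
efl-1: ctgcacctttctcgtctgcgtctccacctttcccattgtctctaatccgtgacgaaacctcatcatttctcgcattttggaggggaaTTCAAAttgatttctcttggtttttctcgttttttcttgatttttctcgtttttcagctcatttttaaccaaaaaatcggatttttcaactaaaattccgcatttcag

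All 3 windows at the IDR peaks of lin-9, lin-53 and lin-54 held an E2F-type match and a CHR-type match. The lin-9 and lin-54 windows held TTTCGCGC, which reads GCGCGAAA in lin-54 because it lies on the opposite strand, and the lin-53 window held TTTCCCGC. In each of the 3 the E2F-type match lay on the side of the midpoint towards the member, starting 76 bp from the midpoint at lin-9 and 66 bp from it at both lin-53 and lin-54. Relative to the annotated 5′ ends it began 80 bp upstream at lin-9, 144 bp upstream at lin-53 and 288 bp upstream at lin-54. The lin-54 match is also upstream of the divergent gene rpl-12, described below, whose 5′ end is nearer to it. The nearest CHR-type match to it began 91 bp upstream of the 5′ end at lin-9, 185 bp at lin-53 and 347 bp at lin-54. None of these matches overlapped another.

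The patterns were chosen with the members known, and the same search was run on all windows of the same length. E2F-type matches were present in 10 of the 79 IDR peaks in promoter windows (12.7%), and the 3 members' peaks are among those 10. The other 7 were at tba-2, his-37, mrpl-28, snr-4, Y22D7AL.10, the pair cct-8 and Y55F3AR.2, and the pair eef-2 and clsp-1. Of the 3798 nuclear joint regions 134 held such a match (3.53%). Both kinds of pattern together were found in 7 of the 79 promoter IDR peaks (8.86%) and in 85 joint regions (2.24%). CHR-type matches alone were frequent, with 54.4% of promoter IDR peaks and 58.4% of nuclear joint regions. The windows differ in base composition: the median GC content was 43.3% in promoter IDR peaks and 33.3% in joint regions, against 53.2% at lin-9, 45.3% at lin-53 and 42.3% at lin-54. The part of GC content in these matches was not tested, nor was the overlap of these sites with those of other factors.

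The efl-1 window held a CHR-type match starting 13 bp from the midpoint on the side away from the gene, and no E2F-type match. In the 300 bp promoter of efl-1 (250 bp before to 50 bp after the 5′ end), TTTCCCGC began 229 bp upstream, outside that window. This match still lies inside the listed joint region, 376 bp wide, and inside the replicate 2 region, 364 bp wide. The lack of an E2F-type match thus holds for the searched window and not for the whole efl-1 region. The 300 bp promoters of lin-9 and lin-53 held the E2F-type matches named above, while that of lin-54 does not reach its match. In the promoters of lin-35, lin-37, lin-52 and dpl-1 no E2F-type pattern was found. Across all 19973 promoters of this length 936 held an E2F-type match (4.69%). The nuclear receptor recognition elements AGGTCA and AGTTCA were absent from all 4 members' windows at joint midpoints and were found in 16.5% of the 79 promoter IDR peaks. Among the members' promoters, AGTTCA was found once, 49 bp upstream of lin-35 on the opposite strand, where 27.0% of all promoters held either element.

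**Figure D1:**
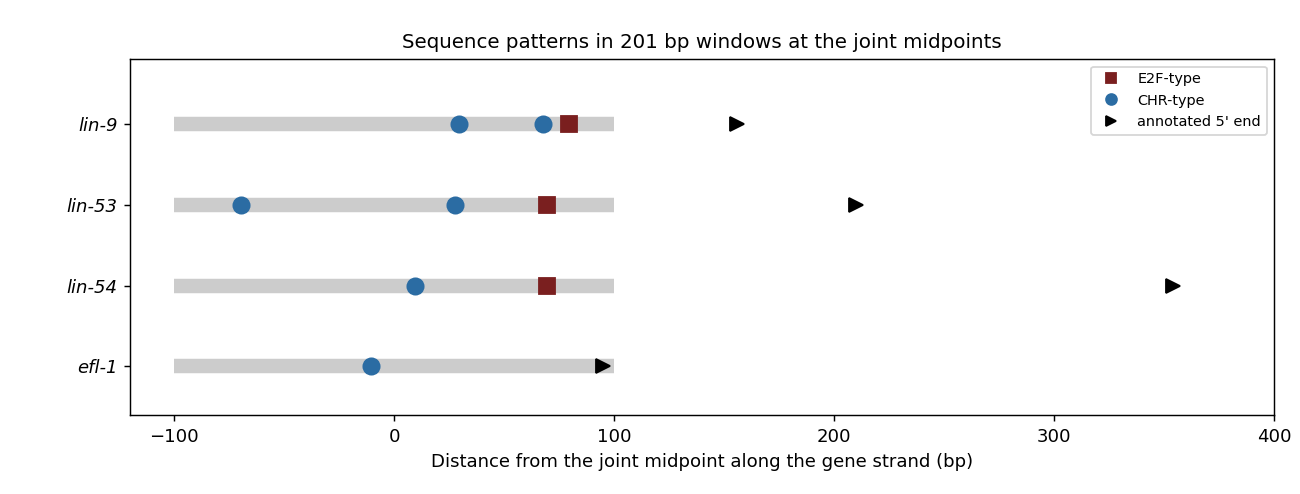
Positions of E2F-type (squares) and CHR-type (circles) matches in the windows (grey bars) of 100 bp to each side of the joint midpoints of the 4 members with a joint region, in bp along the strand of the gene, with the annotated 5′ end as a triangle. The E2F-type matches of lin-9, lin-53 and lin-54 start 66 to 76 bp from the midpoint on the side of the gene, and are drawn at their centres, 69.5 to 79.5 bp from it. The efl-1 window has none, and the TTTCCCGC of efl-1 lies beyond the grey bar but inside its joint region.

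A region of the IDR set lay in the promoter window of 3 of the 8 genes (37.5%), lin-9, lin-53 and lin-54, where 0.511% of all protein-coding genes had one. These 3 were picked for it, and as IDR peaks they are in the joint list by construction. Nothing is read from this share or from the member counts of the other lists, which include them. Of the 5 added genes, efl-1 alone had a joint region, efl-1 and lin-35 had a replicate 2 region, and none had a replicate 1 region. The joint list added efl-1, for 4 of 8 genes (50%) against 4.98% of all genes. Replicate 1 listed a region in the window of 3 members, the picked ones, against 21.4% of all genes. Replicate 2 did so for 5 members, the same 3 with efl-1 and lin-35, against 24.8%. Both replicates had a region in the windows of 3 members, again the picked ones, where 8.16% of all genes had one of each. For lin-37, lin-52 and dpl-1 no list had a region in the window, as for 12372 protein-coding genes (61.9%).

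The DNA-contacting subunit of the MuvB core, lin-54 (WBGene00003037), lies on chromosome IV at 13241044 to 13243401 on the plus strand. Its IDR peak at 13240502 to 13240877 had a joint signal of 45.9 and rank 102 of 3817. In replicate 1 the matching region had a signal of 12.5 and rank 2196, and in replicate 2 a signal of 29.2 and rank 68. The replicates thus placed this site very differently, although their midpoints were 9 bp apart. Among the 76 promoter IDR peaks with a region of each replicate within 100 bp, 4 had a rank over 2000 in replicate 1, that of lin-54 included, and the median rank there was 115.5. The −log10 q-value of the lin-54 region in replicate 1 was 0.361, where the top value of that list was 1.07. In replicate 2 it was at the list's top value of 2.23, which 253 regions shared.

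The gene to which the lin-54 peak belongs is not known. Its midpoint lay 354 bp upstream of lin-54 and 39 bp upstream of rpl-12 (WBGene00004424, IV, 13239587 to 13240651), a gene for a ribosomal protein that is transcribed in the other direction. Their 5′ ends are 393 bp apart, and the peak covers the 5′ end of rpl-12 but no base of lin-54. A list of the strongest regions of replicate 2, as long as the IDR set, would still hold this site, and that of replicate 1 would not. Inside lin-54, replicate 1 listed an intronic region 1262 bp downstream of the 5′ end with a signal of 15.6 and rank 639, higher in that list than its promoter region. Replicate 2 listed a region in a coding exon 461 bp downstream with a signal of 5.50 and rank 25967, and the joint list had neither.

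The peak of lin-9 (WBGene00002998), another MuvB subunit, is the only IDR peak of the 3 that no other protein-coding promoter window holds. The gene lies on chromosome III at 8900237 to 8904131 on the minus strand, and the peak at 8904099 to 8904474. Its midpoint was intergenic, 156 bp upstream of the 5′ end, and the peak reached 33 bp into the gene. The joint signal was 45.4 with rank 110. The region of replicate 1 had a signal of 24.6 and rank 82, and that of replicate 2 a signal of 20.6 and rank 175, with midpoints 18 bp apart. Both replicates thus placed lin-9 in the top 1% of their lists, at 0.305% and 0.583%. The nearest divergent protein-coding gene, unc-32, which encodes a subunit of the vacuolar proton pump, begins 1484 bp from the 5′ end of lin-9.

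The chromatin protein LIN-53 is the worm homologue of the histone-binding protein RbAp48 and serves in other complexes besides DREAM, among them nucleosome remodelling and histone deacetylase complexes. The gene lin-53 (WBGene00003036) lies on chromosome I at 9618196 to 9619760 on the minus strand, with its IDR peak at 9619782 to 9620157. The joint signal was 39.7 with rank 141. Replicate 1 listed the site with a signal of 20.6 and rank 148, and replicate 2 with a signal of 19.4 and rank 216. Both values are below those of lin-9 in the same list, and the replicate midpoints were 41 bp apart.

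The lin-53 midpoint, 210 bp upstream, also lay 257 bp upstream of the divergent gene nra-2 (WBGene00011488, I, 9620227 to 9622377), which is known for a role at nicotinic acetylcholine receptors. The 5′ ends are 467 bp apart and the whole peak lies between them. Directly downstream of lin-53 lies its paralogue rba-1, and no list had a region in the promoter window of rba-1. Of the 79 IDR peaks in promoter windows 23 (29.1%) were in the windows of at least 2 genes, and the peaks of lin-53 and lin-54 are among these. The 102 genes with an IDR peak in the window had the midpoint at a median of 207 bp upstream, with quartiles of 150.75 and 296 bp, so lin-9 and lin-53 lay within that range and lin-54 outside it.

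By joint signal the 3 peaks took places 41 (lin-54), 47 (lin-9) and 65 (lin-53) of the 79 promoter peaks, all below their median of 46.1. The peaks next in signal to lin-54 were those of the pair nhr-47 and dnj-19 (46.1) and of wwp-1 (45.94). Next to lin-9 were sec-61.G (45.5) and nhr-256 (45.2), and next to lin-53 were the pair F55A11.1 and syx-5 (40.01) and icd-2 (39.6). The lowest signal in the IDR set was 37.05, and the strongest region left out had 37.05 as well. No spread can be given for a joint signal. The order of the 3 members was not the same in the replicates: lin-9, lin-53, lin-54 in replicate 1, and lin-54, lin-9, lin-53 in replicate 2.

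**Figure D2:**
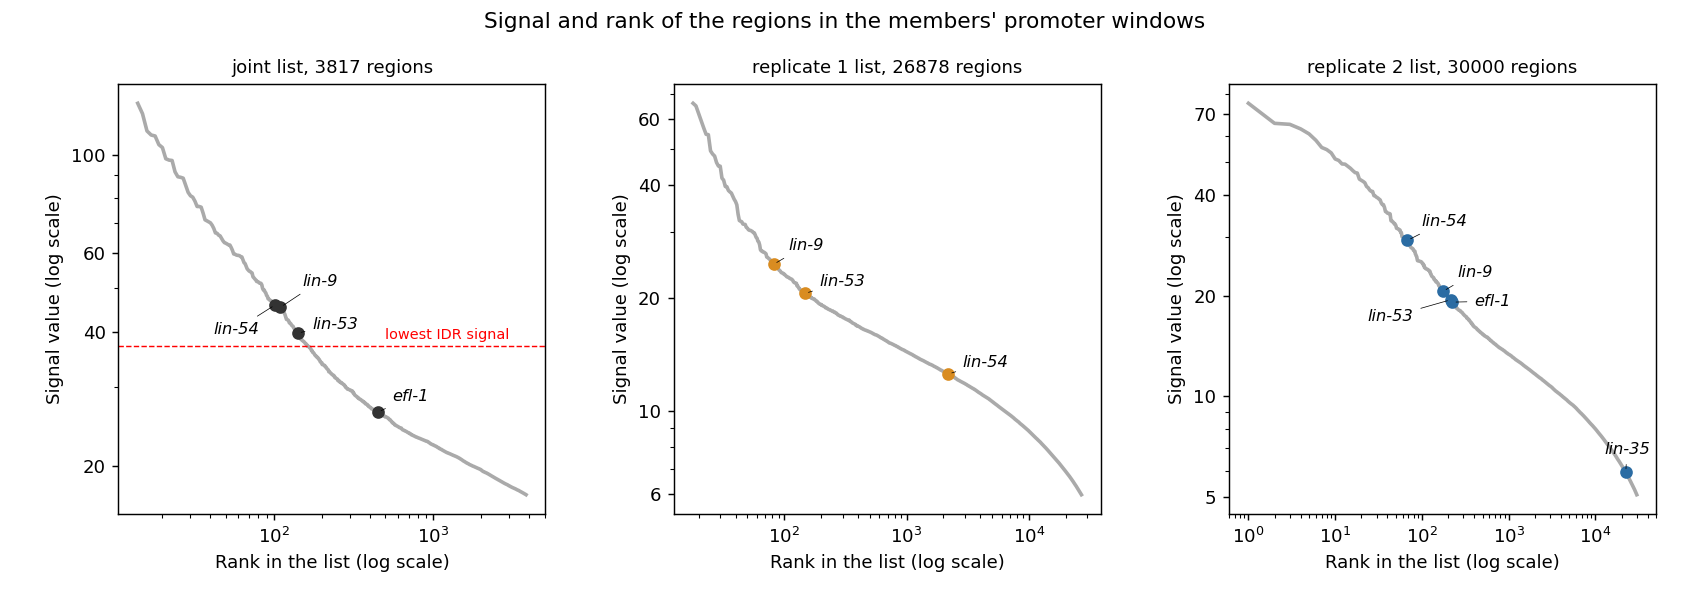
Signal value against rank, both on log scales, for all nuclear regions of the joint list and of each replicate (grey lines), with the regions in promoter windows of members as points. lin-54 lies at rank 68 in replicate 2 and at rank 2196 in replicate 1, while lin-9 and lin-53 lie between ranks 82 and 216 in both.

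Of the DNA-binding pair of the complex, efl-1 had a region listed in its promoter window and dpl-1 did not. The E2F gene efl-1 (WBGene00001161) lies on chromosome V at 16958590 to 16965675 on the minus strand. A joint region at 16965582 to 16965957 had its midpoint 95 bp upstream of its 5′ end, covered 94 bp of the gene and was in no other protein-coding promoter window. Its signal of 26.4, rank 449, was below the IDR set. Its −log10 q-value was 0.585, where all 164 regions of the IDR set had 1.08. Replicate 2 listed the site with a signal of 19.1 and rank 225, where lin-53 had 19.4 and rank 216 in that list, and with the top q-value. Replicate 1 had no region that overlapped it: its nearest region lay 1120 bp away in an efl-1 intron, 1025 bp downstream of the 5′ end, with a signal of 15.0 and rank 805.

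Such a one-sided listing was not rare among weaker joint regions. Of the 772 joint regions in promoter windows outside the IDR set, 401 had a region of each replicate within 100 bp, 207 (26.8%) of replicate 2 only and 146 of replicate 1 only. The efl-1 region was the 114th of the 772 by signal. The pattern of efl-1, joint and replicate 2 without replicate 1, was shared by 150 protein-coding genes (0.751%).

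The DP gene dpl-1 (WBGene00001061, II, 9169910 to 9172565, plus strand) had no region in its promoter window. The nearest joint region lay 15238 bp downstream of its 5′ end. In replicate 2 a region with a signal of 5.90 and rank 22671 lay 1101 bp upstream, and regions at 2158 bp (signal 10.9, rank 2827) and 2365 bp (signal 6.97, rank 14934) downstream lay in the last part of the gene. The gene T23G7.2 spans dpl-1 on the opposite strand, and the last 2 midpoints lie within both genes. Replicate 1 had no region within dpl-1.

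The pocket protein gene lin-35 (WBGene00003020, I, 5807709 to 5815637, plus strand) had a window region in replicate 2 alone, 319 bp upstream, with a signal of 5.93 and rank 22401 of 30000. It lay 99 bp upstream of the divergent gene vps-51, whose 5′ end is 418 bp from that of lin-35. The list holds background as well as peaks, and to which of these the region belongs cannot be told. The same pattern, replicate 2 only, was found at 3171 protein-coding genes (15.9%).

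Within lin-35, all 3 lists other than the IDR set had a region in a coding exon about 6 kb downstream of the 5′ end. The joint midpoint lay 5992 bp downstream with a signal of 21.7 and rank 1141, that of replicate 1 at 5957 bp with a signal of 6.76 and rank 20949, and that of replicate 2 at 5953 bp with a signal of 8.76 and rank 7248. The site lay at 77.9% of the way down the replicate 1 list and at 24.2% of the way down that of replicate 2, and no annotated 5′ end of another gene lay within 1500 bp of the joint midpoint.

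The other MuvB genes, lin-37 (WBGene00003022, III, 7070890 to 7072552) and lin-52 (WBGene00003035, III, 9824083 to 9824750), lie on the minus strand, each close behind a gene of the same strand. The 5′ end of lin-37 is 61 bp from the end of ZK418.5, and that of lin-52 is 127 bp from the end of ZK632.9. Worm genes in such tandem arrays can be transcribed together from a promoter before the first gene, and the annotation used gives no operons, so a promoter window at lin-37 or lin-52 may not contain their promoter. Of the 3615 protein-coding genes whose 5′ end is within 500 bp of the end of a same-strand gene, 0.443% had an IDR peak and 4.90% a joint region in the window, against 0.511% and 4.98% of all genes. The annotated 5′ end of a worm gene can also be a trans-splice site, downstream of the true start.

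The windows of the upstream genes, looked at after these gaps had been seen, held regions of replicate 2 only. At ZK418.5 the region lay 278 bp upstream with a signal of 6.55 and rank 17665. At ZK632.9 a region lay 333 bp upstream with a signal of 8.85 and rank 6985, and another 153 bp downstream with a signal of 5.18 and rank 29015. The latter lies 529 bp upstream of lin-52, just outside its window, while the window regions farthest upstream among the members were those of lin-54, 354 to 374 bp away. The nearest joint regions were 12099 bp from the 5′ end of lin-52 and 68864 bp from that of lin-37. Inside lin-37, replicate 1 listed an intronic region 1364 bp downstream of the 5′ end, with a signal of 8.63 and rank 10781.

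Genes that act with DREAM or under it were taken from 4 lists of related genes. None of them had an IDR peak in the window, and with 0.511% of all genes having one, nothing is read from that. Among 17 other synthetic multivulva class B genes and chromatin partners, 1 had a joint region (5.88%): mys-1, a histone acetyltransferase gene, with a signal of 20.99 and rank 1372 at 8 bp upstream, listed in replicate 2 (rank 336) and not in replicate 1. Their windows held a replicate 1 region at 2 genes (11.8%, against 21.4% of all genes) and a replicate 2 region at 7 (41.2%, against 24.8%). None of 14 regulators of the Rb and E2F pathway, such as the cyclin D gene cyd-1 and its kinase gene cdk-4, had a joint region, 1 had a replicate 1 region (7.14%) and 3 a replicate 2 region (21.4%). Of 23 germline genes 1 had a joint region (4.35%): pie-1, a repressor of transcription in germline precursors, with a signal of 19.7 and rank 1906 at 372 bp upstream, listed in replicate 1 (rank 1583) and not in replicate 2. Replicate 1 listed 8 of the germline genes (34.8%, against 21.4% of all genes) and replicate 2 listed 4 (17.4%, against 24.8%).

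The list of 30 cell cycle and replication genes had 5 with a joint region (16.7%), 11 with a region of replicate 1 (36.7%), 15 with a region of replicate 2 (50%) and 7 with both (23.3%), where all genes gave 4.98%, 21.4%, 24.8% and 8.16%. The region of highest joint signal was that of pcn-1, the gene for the replication clamp PCNA, with 26.3 and rank 454 at 254 bp upstream, where the efl-1 region had 26.4 and rank 449. The replicate 1 region, also 254 bp upstream, ranked 137. The strongest replicate 2 region in the window ranked 14866 and had its midpoint at the 5′ end, 254 bp from the joint midpoint. The spindle checkpoint gene mdf-1 (20.4, rank 1589), the helicase subunit gene mcm-7 (20.2, rank 1663, shared with hpo-18) and the cyclin B gene cyb-1 (19.4, rank 2085, shared with orc-5) followed. Each of these 4 genes had a region of both replicates in its window, though the strongest of each replicate were not always at the same place. The midpoints of the strongest replicate 1 and replicate 2 regions lay 56 and 312 bp upstream at mdf-1, and 48 and 236 bp upstream at cyb-1. At mcm-7 they lay 300 and 282 bp upstream. Only the strongest region per window was kept for these genes, so weaker regions nearer to each other were not looked for.

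**Figure D3:**
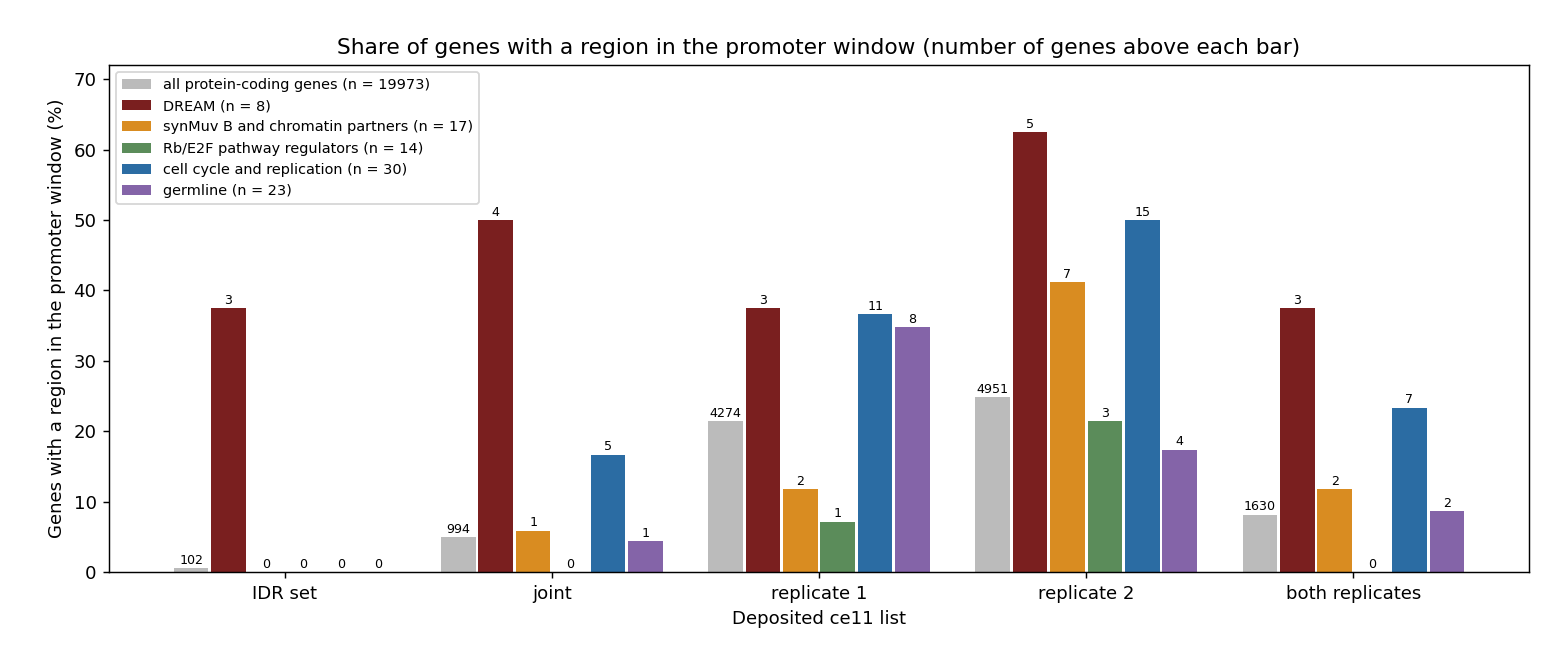
Share of genes, in percent, with a region midpoint in the promoter window in the IDR set, the joint list, each replicate and both replicates, for all protein-coding genes, the 8 DREAM genes and 4 lists of related genes, with the number of genes above each bar. The DREAM bars include the 3 genes picked for their IDR peaks, and the bars of the 4 related lists are at 0 in the IDR set.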

How the data were processed

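Everything was computed from the 4 lists in ce11 coordinates; the 4 lists in ce10 coordinates were not used here, because the reference was of ce11. Regions were called by the authors for each replicate and for both together with 1 control file, per the deposited descriptions of file derivation. The aligner, the caller, their versions and the IDR threshold are not given in the sources used here. The signal and −log10 q-value columns were used as deposited; the p-value column holds a placeholder. Genes and 5′ ends came from Ensembl release 115 (WBcel235), and the 8 members had the same 5′ ends in RefSeq. Where several regions lay in a window, that of highest signal was taken. The assignment was tested on simulated data with 200 planted regions. Values were computed with Python 3.11.15, pandas 2.3.3 and numpy 2.4.6.

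The members and the lists of related genes were chosen with earlier results of these data known. Named are the members, genes that share or neighbour their regions, the peaks next in joint signal, and up to 4 genes of each related list by joint signal. Replicates had separate biosamples, per the labels. Alternatives were other windows, overlap in place of midpoints, any transcript's 5′ end, stricter peaks, other matching distances and each replicate alone.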

Additional observations from a re-analysis of the deposited data

How the results depend on the processing

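Of 21 alternative values, 18 stayed within 1.5 times the main count. None of the members' IDR peaks was among the stronger 82 of the set, so the count of 3 fell to 0 there. With the strongest 164 regions of only 1 replicate, the count ran from 1 (replicate 2 alone, lin-54) to 2 (replicate 1 alone, lin-9 and lin-53). A region in the window was required of both replicates for 3 members; with only 1 required, the count ran from 3 (replicate 1) to 5 (replicate 2). With an upstream limit of 250 bp lin-54 dropped out of all 4 lists and lin-35 out of replicate 2. Limits of 1000 bp, overlap of any part of a region and other transcripts left the IDR, joint and both-replicate counts at 3, 4 and 3, and lin-52 gained a replicate 2 region under the first 2 of these. At matching distances of 50 and 200 bp the same count of 3 joint regions was listed in both replicates, and with replicate 2 alone 4 were. No paired analysis was possible because there was 1 group. With 2 replicates and unknown depth, no error can be put on a signal, and control samples without the tag were not analysed here.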
